A study of Mus musculus with 8 samples.

Results

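The AP-1 and Egr immediate early factors described here are the Fos family members Fos, Fosb and Fosl2, the Jun family members Jun, Junb and Jund, the zinc finger factors Egr1, Egr2 and Egr3, and Ier2, measured by RNA-seq in whole mouse spleen. All rows of the expression table carrying one of these 10 gene symbols were taken, which gave 10 transcripts, 1 for each symbol, of 23517 transcripts and 17738 symbols in all. The samples were total RNA from the spleens of 8 untreated male C57BL/6 mice aged 8 to 12 weeks, 4 of them wild-type (WT) and 4 TTPΔARE. TTPΔARE mice carry a germline deletion of the AU-rich element downstream of the coding sequence, in the 3′ UTR (untranslated region) of Zfp36, the gene for tristetraprolin (TTP), and the labels do not state zygosity, litter or the order and time of tissue collection. No spleen was stimulated on purpose, and every level below is that of untreated tissue as it was collected. The spleens are called wild-type 1 to 4 and TTPΔARE 1 to 4, and these numbers are names that pair no animals.

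Immediate early genes are transcribed within minutes of a stimulus without new protein synthesis, mainly through the factors SRF and CREB at their promoters and the MAP kinases upstream of them. Fos and Jun proteins dimerize through leucine zippers to form AP-1, and Egr proteins bind GC-rich sites through zinc fingers. In spleen these factors are best known as early responses of lymphocytes to antigen receptor signalling and of myeloid cells to microbial products, and they also respond to stress, including tissue handling. Many of their mRNAs are short-lived because of AU-rich elements in the 3′ UTR, and TTP is a protein that binds such elements and recruits the mRNA decay machinery.

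Sequencing depth, estimated from the step that 1 fragment makes in low FPKM values, was 28.4 M to 32.3 M fragments per spleen, and log2 values of any pair of spleens correlated across transcripts with a Pearson r of 0.975 to 0.994. Zfp36, the targeted gene, was at 37.9, 42.1, 44.9 and 36.4 FPKM in the wild-type spleens and at 57.5, 46.1, 55.1 and 52.9 FPKM in the TTPΔARE spleens, with no overlap. The spleen label fitted the lineage markers, with 10 B cell markers summing to 997 to 1067 FPKM in wild-type and 870 to 939 FPKM in TTPΔARE spleens. Markers of erythroid cells moved with genotype: all 20 had a higher mean in TTPΔARE, 2 of them past adjusted p 0.05 in limma, and their summed level was 123 to 234 FPKM in wild-type and 232 to 402 FPKM in TTPΔARE, with none at 0. In whole spleen RNA, fewer cells of a type and less RNA per cell cannot be told apart. Of 10 pancreas markers 1 and of 8 adipose markers 3 reached the filter on low values, a mean of 0.5 FPKM.

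None of the 9 members that passed the filter differed between genotypes at an adjusted p under 0.05 in limma, against 664 of 16608 transcripts (4.00%) over the whole table. At an unadjusted p under 0.05 there were 4 of 9, Ier2 and Junb with a lower and Jun and Fosl2 with a higher mean in TTPΔARE, where 21.1% of all transcripts were under that value. The 4 and 4 values did not overlap for 2 of the 9, Jun and Ier2, against 12.5% of all transcripts. The median log2 difference, TTPΔARE minus wild-type on the log2(FPKM + 0.5) scale, was -0.08 over the 9 members and 0.0031 over all transcripts tested. With 9 members, none of these shares is read as particular to the group.

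**Figure D1:**
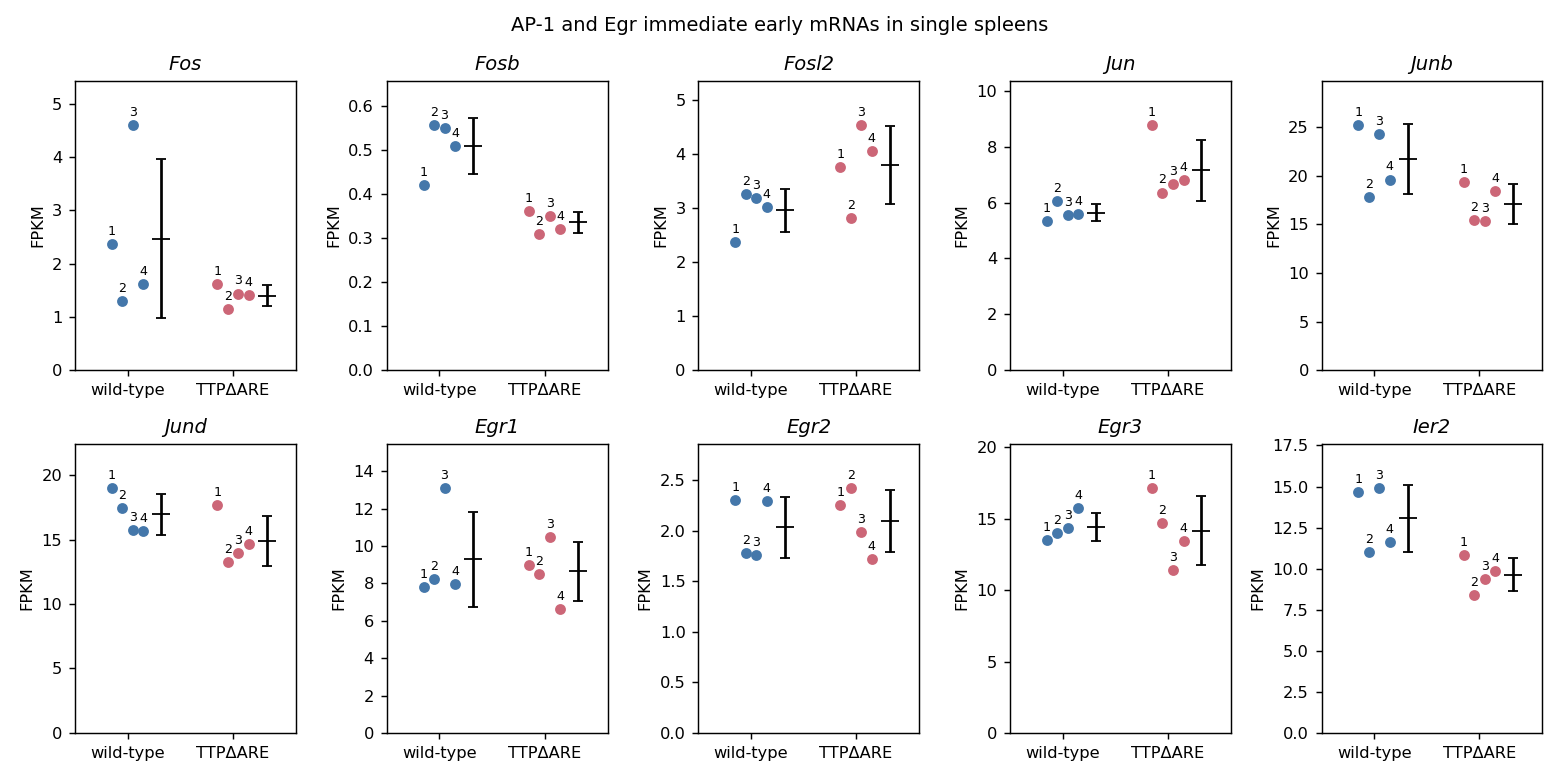
FPKM of each member (y axes, from 0) in the 4 wild-type and 4 TTPΔARE spleens, each point 1 spleen with its replicate number, and black bars the mean ± SD of 4. Wild-type 3 stands at the top for Fos (4.60 FPKM) and Egr1 (13.1 FPKM), and the groups do not overlap for Fosb, Jun and Ier2.

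FPKM corrects for transcript length, so the members' levels can be ordered. By their mean over 8 spleens, the order was Junb (19.4 FPKM), Jund (15.9 FPKM), Egr3 (14.3 FPKM), Ier2 (11.3 FPKM), Egr1 (8.97 FPKM), Jun (6.39 FPKM), Fosl2 (3.37 FPKM), Egr2 (2.07 FPKM), Fos (1.93 FPKM) and Fosb (0.422 FPKM). The ranges over spleens of neighbours in this order overlapped, except between Jun and Fosl2 and between Fos and Fosb. Junb and Jund, the Jun proteins best known for restraining growth, thus stood above Jun, and the Fos family held the lowest AP-1 levels. Together the 10 members summed to 81.4 to 98.1 FPKM in wild-type and 73.4 to 90.7 FPKM in TTPΔARE spleens.

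Among the Fos family, Fos, the inducible AP-1 subunit that pairs with Jun proteins, was at 2.36, 1.30, 4.60 and 1.61 FPKM in wild-type 1 to 4 and at 1.61, 1.15, 1.44 and 1.41 FPKM in TTPΔARE 1 to 4. Wild-type 3 was 3.19 times the median of the other 7 spleens, wild-type 1 was the next highest, and the remaining 6 spleens of both genotypes lay together, so that the groups overlapped. The means were 2.47 ± 1.49 and 1.40 ± 0.191 FPKM (SD, n = 4 each), a log2 difference of -0.53 (SE 0.256, 95% interval -1.09 to 0.03, limma adjusted p = 0.266). Without wild-type 3 the log2 difference was -0.23 (limma adjusted p = 0.438). Fos rested on an estimated 70.2 to 284 fragments per spleen, for which counting alone gives a relative error of 11.9% at the lowest. The coefficient of variation was 60.2% among the wild-type spleens, well above that error, and 13.7% among the TTPΔARE spleens, close to it.

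Fosb, a Fos relative whose splice forms accumulate on repeated stimulation in the brain, was at 0.420, 0.556, 0.551 and 0.509 FPKM in wild-type 1 to 4. In TTPΔARE 1 to 4 it was at 0.362, 0.310, 0.351 and 0.320 FPKM. Every wild-type spleen lay above every TTPΔARE spleen, but with an overall mean of 0.422 FPKM the transcript fell under the filter. Fitted with no filter, the log2 difference was -0.27 (SE 0.0648, 95% interval -0.41 to -0.13, limma adjusted p = 0.0621); the pseudocount exceeds most of these levels, so this understates the ratio of the means, 0.659. It rested on 34.1 to 66.1 estimated fragments per spleen, a counting error of up to 17.1%.

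Fosl2 (Fra-2), a Fos family member without the strong activation domain of Fos, was at 2.37, 3.25, 3.18 and 3.01 FPKM in wild-type 1 to 4 and at 3.76, 2.82, 4.53 and 4.05 FPKM in TTPΔARE 1 to 4. Only TTPΔARE 2 reached down into the wild-type range, and the other TTPΔARE spleens lay above all of it. The means were 2.95 ± 0.402 and 3.79 ± 0.721 FPKM (SD, n = 4 each), a log2 difference of 0.30 (SE 0.127, 95% interval 0.03 to 0.58, limma adjusted p = 0.199). With the mean of the erythroid markers as a covariate it was 0.07 (limma adjusted p = 0.942). Those markers themselves moved with genotype, and only 2 of 16608 transcripts passed in that fit. In the same fit the log2 difference of Fos went from -0.53 to -1.11. The part of erythroid cells in the Fosl2 value was not tested.

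Among the Jun family, Jun, the partner of Fos in classical AP-1, was at 5.34, 6.07, 5.55 and 5.58 FPKM in wild-type 1 to 4 and at 8.77, 6.36, 6.68 and 6.80 FPKM in TTPΔARE 1 to 4. The groups did not overlap, the wild-type spleens lay close together, and TTPΔARE 1 stood above the other spleens of its genotype. The means were 5.64 ± 0.310 and 7.15 ± 1.10 FPKM (SD, n = 4 each), a log2 difference of 0.31 (SE 0.0911, 95% interval 0.11 to 0.51, limma adjusted p = 0.0847).

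Junb was at 25.2, 17.8, 24.3 and 19.6 FPKM in wild-type 1 to 4 and at 19.3, 15.5, 15.3 and 18.4 FPKM in TTPΔARE 1 to 4. Wild-type 1 and 3 were the highest, and wild-type 2 lay inside the TTPΔARE range. The log2 difference was -0.33 (SE 0.116, 95% interval -0.58 to -0.07, limma adjusted p = 0.137), from means of 21.7 ± 3.60 and 17.1 ± 2.05 FPKM (SD, n = 4 each). Jund, the Jun protein that is expressed most steadily in resting cells, was at 19.0, 17.4, 15.8 and 15.7 FPKM in wild-type 1 to 4 and at 17.7, 13.2, 14.0 and 14.7 FPKM in TTPΔARE 1 to 4. TTPΔARE 1 lay inside the wild-type range and its 3 group mates below it, with a log2 difference of -0.19 (SE 0.0921, 95% interval -0.39 to 0.01, limma adjusted p = 0.270). Jund varied 1.44-fold between its lowest and highest spleen, against 1.41-fold for Egr2, the least of the members, and 4.01-fold for Fos, the most.

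Egr1, the most widely inducible Egr factor, was at 7.82, 8.24, 13.1 and 7.98 FPKM in wild-type 1 to 4 and at 8.99, 8.50, 10.5 and 6.65 FPKM in TTPΔARE 1 to 4. Wild-type 3 stood apart from its 3 group mates, which were nearly equal, and it was 1.59 times the median of the other 7 spleens. The log2 difference was -0.08 (SE 0.163, 95% interval -0.44 to 0.28, limma adjusted p = 0.828), and without wild-type 3 its sign turned, to 0.09 (limma adjusted p = 0.750).

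Egr2, which restrains T cell activation and drives myelination in Schwann cells, was at 2.31, 1.78, 1.76 and 2.29 FPKM in wild-type 1 to 4 and at 2.25, 2.42, 1.99 and 1.72 FPKM in TTPΔARE 1 to 4. Egr3, which is induced by antigen receptor signalling, was at 13.5, 14.0, 14.4 and 15.8 FPKM in wild-type 1 to 4 and at 17.2, 14.7, 11.4 and 13.4 FPKM in TTPΔARE 1 to 4. For both, the groups overlapped over most of their range, and wild-type 3 did not stand out. The log2 differences were 0.03 (SE 0.108) for Egr2 and -0.04 (SE 0.105) for Egr3, with limma adjusted p of 0.897 and 0.889. The 95% intervals ran from -0.20 to 0.27 for Egr2 and from -0.27 to 0.19 for Egr3, so that larger mean differences in either direction lie outside them.

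Ier2, a small nuclear protein encoded by a serum-inducible gene, was at 14.7, 11.0, 14.9 and 11.6 FPKM in wild-type 1 to 4 and at 10.8, 8.42, 9.36 and 9.87 FPKM in TTPΔARE 1 to 4. All wild-type spleens lay above all TTPΔARE spleens, with wild-type 2 and TTPΔARE 1 nearly touching, and wild-type 1 and 3 formed the upper pair as they did for Junb. The means were 13.1 ± 2.02 and 9.62 ± 1.01 FPKM (SD, n = 4 each), a log2 difference of -0.41 (SE 0.106, 95% interval -0.65 to -0.18, limma adjusted p = 0.0549). Ier2 passed adjusted p 0.05 with median-of-ratios scaling (adjusted p = 0.0450), with limma's robust variance (adjusted p = 0.0488) and without wild-type 2 (adjusted p = 0.0350), and over its 18 alternatives the limma adjusted p ranged from 0.0350 to 0.243.

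**Figure D2:**
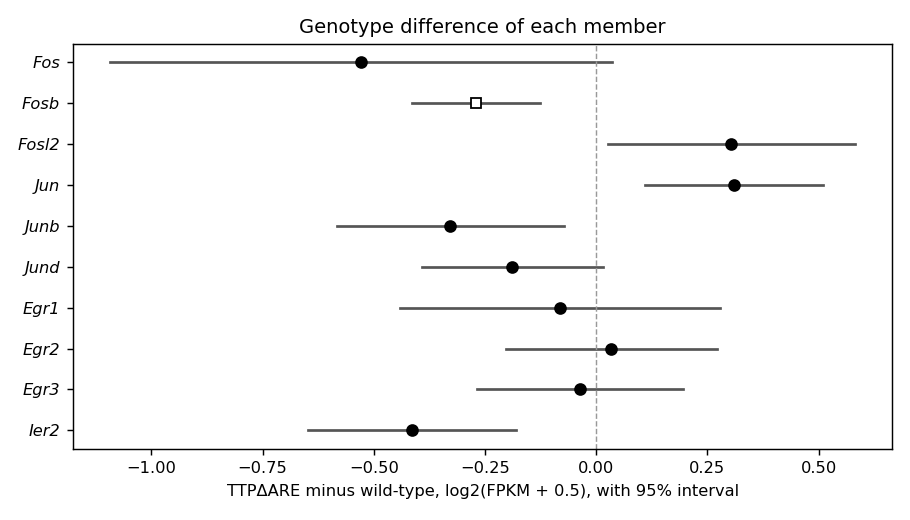
Log2 difference between genotypes (x axis, TTPΔARE minus wild-type on log2(FPKM + 0.5)) for each member (y axis), with limma's 95% interval as a line; circles come from the fit with the filter and the open square, Fosb, from the fit without it. The intervals of Fosb, Junb and Ier2 lie below 0, those of Jun and Fosl2 above 0, and no adjusted p was under 0.05.

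The 3′ UTRs of the members differ in the AU-rich motifs that TTP is known to bind. The motifs searched, in the sense strand of GENCODE M21 3′ UTRs matched by transcript accession (GRCm38), were the heptamer TATTTAT, the nonamer TTATTTATT that contains it, and the pentamer ATTTA that lies within both. The heptamer was found 3 times in Fosl2, 2 times in Fos and 1 time each in Jun, Jund and Fosb, and not in Junb, Ier2, Egr1, Egr2 or Egr3; of 15726 tested transcripts with a 3′ UTR, 26.9% held it. The nonamer was found 1 time in Fos and 1 time in Fosl2, against 6.91% of transcripts with at least 1. Ier2 held no pentamer, where 65.8% of transcripts held at least 1, while Egr3 held 7 and Fosl2 8 in a far longer 3′ UTR. One heptamer of each gene is shown with 10 bases on either side, heptamer in capitals, because these are the letters by which the members divide; each lies in the last exon, in the 3′ UTR, and is written 5′ to 3′ on the gene's strand. The Fos site is at chr12:85477104-85477130 (plus strand), the Fosl2 site at chr5:32156872-32156898 (plus), the Jun site at chr4:95049080-95049106 (minus), the Jund site at chr8:70700360-70700386 (plus) and the Fosb site at chr7:19303327-19303353 (minus).
Fos: gttttcaattTATTTATtaagatggat
Fosl2: tttattttatTATTTATtttaaatgtt
Jun: tgcttgtgcaTATTTATaatagcgttc
Jund: gattccgcccTATTTATgtttctactc
Fosb: cacccccagcTATTTATccctttcctg
The Fos and Fosl2 sites shown are those with the nonamer. The log2 differences of the 5 members with a heptamer lay on both sides of 0, at -0.53 for Fos, -0.27 for Fosb, -0.19 for Jund, 0.30 for Fosl2 and 0.31 for Jun. Those of the 5 members without one were -0.41 for Ier2, -0.33 for Junb, -0.08 for Egr1, -0.04 for Egr3 and 0.03 for Egr2. None of these differences passed the threshold, that of Fosb is from the fit without the filter, and whether direction goes with the heptamer was not tested.

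Across the 8 spleens, the members did not move as 1 block. Of the 45 pairs of members, 25 had a positive and 20 a negative Pearson r on log2(FPKM + 0.5), and 2 had an adjusted p under 0.05 by an exact two-sided permutation test, with Benjamini-Hochberg adjustment over the 45. Junb and Ier2 had r = 0.962 (exact permutation p = 0.000918, adjusted p = 0.0290; Spearman rho 0.881, exact permutation p = 0.00724), and r = 0.859 without wild-type 1 and 3, the spleens farthest from the median. Fos and Ier2 had r = 0.853 (exact permutation p = 0.00129, adjusted p = 0.0290; Spearman rho 0.833, exact permutation p = 0.0154), and r = 0.731 (exact permutation p = 0.107) without wild-type 1 and 3. No pair passed by Spearman's rho after adjustment.

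After subtraction of each genotype's mean the r was 0.949 for Junb with Ier2 and 0.830 for Fos with Ier2, close to the values before that subtraction. Fos and Junb had r = 0.817 (exact permutation p = 0.00603, adjusted p = 0.0904). Leaving out any 1 spleen other than wild-type 2 left no pair under adjusted p 0.05. Fos and Egr1 had r = 0.666 (exact permutation p = 0.0954, adjusted p = 0.537), which was -0.14 without wild-type 3 and rests on that spleen. Junb and Ier2 are single-exon genes that lie 314.1 kb apart on chromosome 8 (GRCm38; Junb at 84976909 to 84978748, Ier2 at 84661331 to 84662852).

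**Figure D3:**
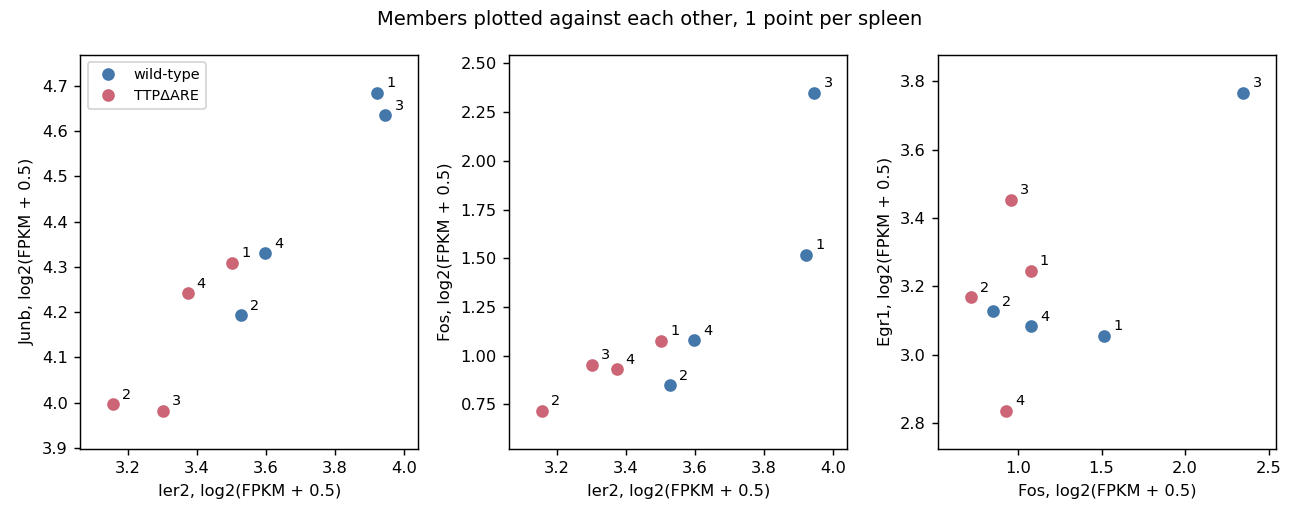
Junb against Ier2, Fos against Ier2 and Egr1 against Fos, all on log2(FPKM + 0.5), 1 point per spleen with its replicate number. Junb and Ier2 lie along 1 line through both genotypes (r = 0.962), whereas Egr1 follows Fos only through wild-type 3 (r = 0.666 with it, -0.14 without it).

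Promoter sequences are shown for Fos and Junb, which both correlated with Ier2, and for Jun and Egr2, which were in neither pair that passed. Each is the 250 bases upstream of a RefSeq start (GRCm38.p6), 5′ to 3′ on the gene's strand, with motif matches in capitals. Promoters of 7 of the 10 members were searched, and Egr1, Egr3 and Ier2 are named only. Motifs searched on both strands were the CRE octamer TGACGTCA, its 5-mer core TGACG (contained in the octamer), the 8-mer TGACNTCA (which includes the octamer), the AP-1 7-mer TGANTCA, the CArG box that SRF binds, TATAAA and the Egr site GCGNGGGCG. Of 32851 promoters of this length, 17.8% held the core, 7.49% the 8-mer, 6.75% the AP-1 7-mer, 1.55% the octamer, 1.47% a CArG box, 12.4% TATAAA and 4.70% the Egr site. The windows are chr12:85473640-85473889 (Fos, plus strand), chr8:84978749-84978998 (Junb, minus), chr4:95052223-95052472 (Jun, minus) and chr10:67537619-67537868 (Egr2, plus, the start nearest its transcript's).
Fos: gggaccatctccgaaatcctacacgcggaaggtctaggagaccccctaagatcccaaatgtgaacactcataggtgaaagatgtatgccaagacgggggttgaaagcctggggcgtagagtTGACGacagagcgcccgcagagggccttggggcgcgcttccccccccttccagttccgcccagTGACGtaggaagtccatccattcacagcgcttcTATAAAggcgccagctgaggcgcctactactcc
Junb: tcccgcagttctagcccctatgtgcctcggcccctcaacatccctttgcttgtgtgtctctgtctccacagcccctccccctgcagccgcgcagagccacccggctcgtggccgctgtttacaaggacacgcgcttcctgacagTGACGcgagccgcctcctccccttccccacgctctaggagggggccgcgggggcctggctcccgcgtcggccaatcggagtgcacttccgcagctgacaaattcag
Jun: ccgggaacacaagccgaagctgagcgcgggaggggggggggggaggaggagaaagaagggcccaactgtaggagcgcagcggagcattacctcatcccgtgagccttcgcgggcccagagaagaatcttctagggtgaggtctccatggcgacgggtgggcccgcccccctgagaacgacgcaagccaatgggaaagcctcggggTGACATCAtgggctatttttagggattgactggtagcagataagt
Egr2: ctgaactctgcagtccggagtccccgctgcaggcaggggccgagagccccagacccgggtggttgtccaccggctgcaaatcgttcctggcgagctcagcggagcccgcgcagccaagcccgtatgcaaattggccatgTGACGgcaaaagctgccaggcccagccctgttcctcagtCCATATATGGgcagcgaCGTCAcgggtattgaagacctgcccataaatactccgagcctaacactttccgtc
In the Fos window the CRE core begins at -129 and -66 and TATAAA at -33 from the start. The Junb window holds 1 CRE core, at -106, and the Jun window the 8-mer TGACATCA at -45 and no CRE core. The Egr2 window holds a CArG box at -72 between CRE cores at -111 and, on the other strand, -55. Fosb held a CRE core at -60 and an Egr site at -50, and Fosl2 an Egr site at -79 from a RefSeq start that lies 671 bases from that of its measured transcript. The Jund entry, whose start lies 1210 bases from that of its measured transcript, held none of these motifs. A match is a description of these letters, and a motif not found here may lie outside the window.

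**Figure D4:**
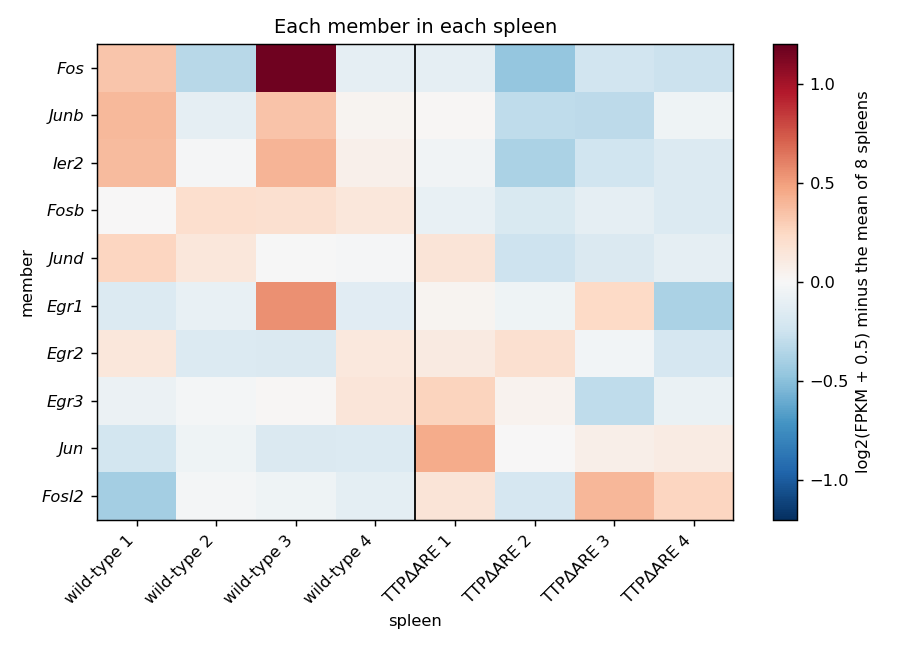
Log2(FPKM + 0.5) of each member (rows) in each spleen (columns, the line dividing the genotypes) minus that member's mean over 8 spleens, as colour from blue (lower) to red (higher). Wild-type 3 is high for Fos, Junb, Ier2 and Egr1 but not for Egr2, Egr3, Jun or Fosl2, and TTPΔARE 2 is lowest for Fos, Fosb, Jund and Ier2.

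Single spleens were looked at for the pattern that tissue handling is known to give, a joint rise of Fos, Egr1 and other immediate early mRNAs. Wild-type 3 was the highest of the 8 spleens for 3 of 10 members, Fos, Egr1 and Ier2, and the lowest for none. Of 48 other immediate early genes it was the highest for 7 (14.6%, against 11.8% of all transcripts tested) and the lowest for 7 (14.6%, against 8.63%). TTPΔARE 3 was the highest for 12 of the 48, TTPΔARE 1 for 9 and wild-type 1 for 8. Dusp1, a phosphatase that inactivates MAP kinases, was at 19.1 FPKM in wild-type 3 and at 9.40 to 12.5 FPKM in the other 7 spleens. Cyr61 was at 13.6 FPKM in wild-type 3 and at 3.02 to 6.30 FPKM in the other 7. Dusp5 was at 5.09 FPKM in wild-type 3 and at 2.91 to 4.41 FPKM in the other 7. Dusp1, Cyr61 and Dusp5 are examples from the high side only. On the low side, Klf2 was at 22.5 FPKM in wild-type 3 and at 23.8 to 34.1 FPKM in the other 7. Klf4 was at 4.30 FPKM in wild-type 3 and at 4.40 to 5.11 FPKM in the other 7. With 7 highest and 7 lowest, the 48 genes did not rise jointly in wild-type 3.

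Wild-type 3 also had the highest sum of neutrophil markers, 288 FPKM against 99.9 to 257 FPKM in the others, and the highest erythroid sum of the wild-type spleens. The summed level of heat shock genes in wild-type 3 was 898 FPKM, inside the wild-type range of 739 to 933 FPKM. That sum is mostly set by abundant genes such as Hspa8 (348 FPKM in wild-type 3) and Hsp90ab1 (329 FPKM). Wild-type 3 was the highest of the 8 spleens for 0 of 12 heat shock genes. Among wild-type spleens alone it was the highest for some, such as Hspa1b, at 1.47 FPKM against 0.540 to 1.41 FPKM. TTPΔARE 3, where heat shock genes summed to 1288 FPKM, was the highest spleen for 10 of 12 heat shock genes and 6 of 9 glucocorticoid response genes, and the most frequent highest spleen for the other immediate early genes (25%, against 12.5% of all transcripts tested). Its Egr1, at 10.5 FPKM, and its Dusp1, at 12.5 FPKM, were second to wild-type 3, while its Fos, at 1.44 FPKM, lay inside the range of the other TTPΔARE spleens. No label gives the time, order or way of collection, and the part of handling or of cell makeup in wild-type 3 and TTPΔARE 3 was not tested.

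The genes whose levels were most like those of Fos across the 8 spleens were taken from 11163 symbols with a mean of at least 1 FPKM, by Pearson r on log2(FPKM + 0.5), as a description. They were Zrsr1 (r = 0.979), Tab1 (0.975), Lipa (0.963), Nmnat3 (0.948), Tmed4, Timm17a, Idua, Esrra, Snhg5 and Dusp1 (0.919). Dusp1 is the one immediate early gene among them, and its r was 0.572 without wild-type 3, whereas Tab1 kept 0.979. For Jund the 10 nearest were Mtfr1l (0.961), Slc39a7, Pih1d1, Nudt14, Romo1, Trex1, Yrdc, 2900076A07Rik, Nfu1 and Tbcc (0.944), and no member was shared with the list for Fos.

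Of the other AP-1 and bZIP partners, 12 of 13 passed the filter and none differed at adjusted p 0.05 in limma. At an unadjusted p under 0.05 there were 5, all with a higher mean in TTPΔARE, against 21.1% of all transcripts. The median log2 difference was 0.14 (all symbols tested 0.0048). Batf3, which dimerizes with Jun proteins and is required by cross-presenting dendritic cells, was at 3.01 ± 0.468 FPKM in wild-type and 4.55 ± 0.856 FPKM in TTPΔARE spleens (log2 difference 0.52, SE 0.132, limma adjusted p = 0.0544). The Egr corepressors Nab2 and Nab1 had log2 differences of -0.24 (limma adjusted p = 0.117) and -0.04 (limma adjusted p = 0.766).

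Upstream of the members, none of 8 transcription factors and none of 10 kinases differed at adjusted p 0.05 in limma. At an unadjusted p under 0.05 there were 1 and 0, against 21.1% of all transcripts. The median log2 differences were 0.03 and 0.04. Elk4, a partner of SRF, had a log2 difference of -0.28 (limma adjusted p = 0.186), and Srf itself -0.11 (limma adjusted p = 0.334). Mapk8, the Jun kinase JNK1, had -0.12 (limma adjusted p = 0.261), and Map2k1, the ERK kinase MEK1, 0.08 (limma adjusted p = 0.463).

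Of 48 other immediate early genes, 2 rose and 3 fell in TTPΔARE spleens, against 280 and 237 of all 12410 symbols tested. The median log2 difference of the 48 was 0.04. Dusp2, a phosphatase of activated lymphocytes that acts on MAP kinases, fell from 14.8 ± 1.17 to 10.5 ± 0.785 FPKM (SD, n = 4 each; log2 difference -0.47, SE 0.0720, limma adjusted p = 0.00849). Nr4a1, an orphan nuclear receptor induced by antigen receptor signalling, fell from 15.1 ± 1.21 to 11.4 ± 0.969 FPKM (log2 difference -0.38, SE 0.0770, limma adjusted p = 0.0217). Btg2, an antiproliferative p53 target, fell from 44.6 ± 1.87 to 36.7 ± 2.87 FPKM (log2 difference -0.28, limma adjusted p = 0.0389).

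The 2 that rose were Zfp36, which carries the deletion (log2 difference 0.39, limma adjusted p = 0.0323), and Rhob, a small GTPase (log2 difference 0.40, limma adjusted p = 0.0378). For all 5 the groups did not overlap (12.5% of all transcripts). With the mean of the erythroid markers as a covariate none of the 5 passed (limma adjusted p from 0.122 for Nr4a1 to 0.493 for Zfp36), although each kept its sign, with log2 differences of -0.41 for Dusp2, -0.51 for Nr4a1, -0.24 for Btg2, 0.27 for Zfp36 and 0.38 for Rhob. In that fit only 2 of 16608 transcripts passed, 0 higher and 2 lower, so losing the threshold there is not particular to these genes. When 1 spleen was left out, Dusp2 passed in all 8 fits. Nr4a1 was lost without wild-type 2, wild-type 4 or TTPΔARE 4 (limma adjusted p up to 0.0648), and Zfp36 without wild-type 1 or 4 or TTPΔARE 1, 3 or 4 (up to 0.108). Rhob was lost in each such fit except those without wild-type 3 or TTPΔARE 1 (up to 0.0985), as was Btg2 (up to 0.134). Junb and Ier2, with log2 differences of -0.33 and -0.41, thus had differences of a size like those of Dusp2, Nr4a1 and Btg2, but with SEs of 0.116 and 0.106 against 0.0650 to 0.0770. B cell markers moved in the same direction: 9 of 10 had a lower mean in TTPΔARE, 2 past adjusted p 0.05 (4.00% of all transcripts). Their median log2 difference was -0.21. Of 10 T cell markers, 7 had a lower and 3 a higher mean, 0 past adjusted p 0.05, with a median of -0.11. Of 10 stromal and endothelial markers, 4 passed as lower and 1 as higher, with a median of -0.02. The part of these cell types in the values of Ier2, Junb and the other immediate early genes was not tested.

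Of 12 genes known as targets of AP-1 or Egr factors that passed the filter, Plaur alone passed adjusted p 0.05 (4.00% of all transcripts). Plaur, the urokinase receptor, fell from 13.5 ± 0.970 to 7.42 ± 0.263 FPKM (SD, n = 4 each; log2 difference -0.82, SE 0.0617, limma adjusted p = 0.000584), and the median over the 12 was 0.06. It passed under all 18 alternatives, the erythroid covariate included (log2 difference -0.79, limma adjusted p = 0.0325). Of 12 heat shock genes, 3 rose, against 280 of all 12410 symbols tested, and the median log2 difference was 0.39. The 3 were Hspb1 (log2 difference 0.83, limma adjusted p = 0.0253), Hsph1 (0.87, limma adjusted p = 0.0453) and Hspa8 (0.53, limma adjusted p = 0.0455). None of these 3 passed with the erythroid covariate (limma adjusted p = 0.293, 0.478 and 0.515), a fit in which 0 transcripts passed as higher. Their log2 differences in it were 0.82, 0.71 and 0.40. When 1 spleen was left out, Hspb1 was lost without wild-type 1 or TTPΔARE 1, 3 or 4 (limma adjusted p up to 0.0887), and Hsph1 and Hspa8 in every such fit except those without wild-type 2 or TTPΔARE 2 (up to 0.128 and 0.144). None of 9 glucocorticoid response genes passed, with a median of 0.31. At an unadjusted p under 0.05 there were 4, all with a higher mean in TTPΔARE, against 21.1% of all transcripts. Klf9 had a log2 difference of 0.50 (limma adjusted p = 0.0590), Fkbp5 0.59 (limma adjusted p = 0.0968) and Ddit4 0.08 (limma adjusted p = 0.907).

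**Figure D5:**
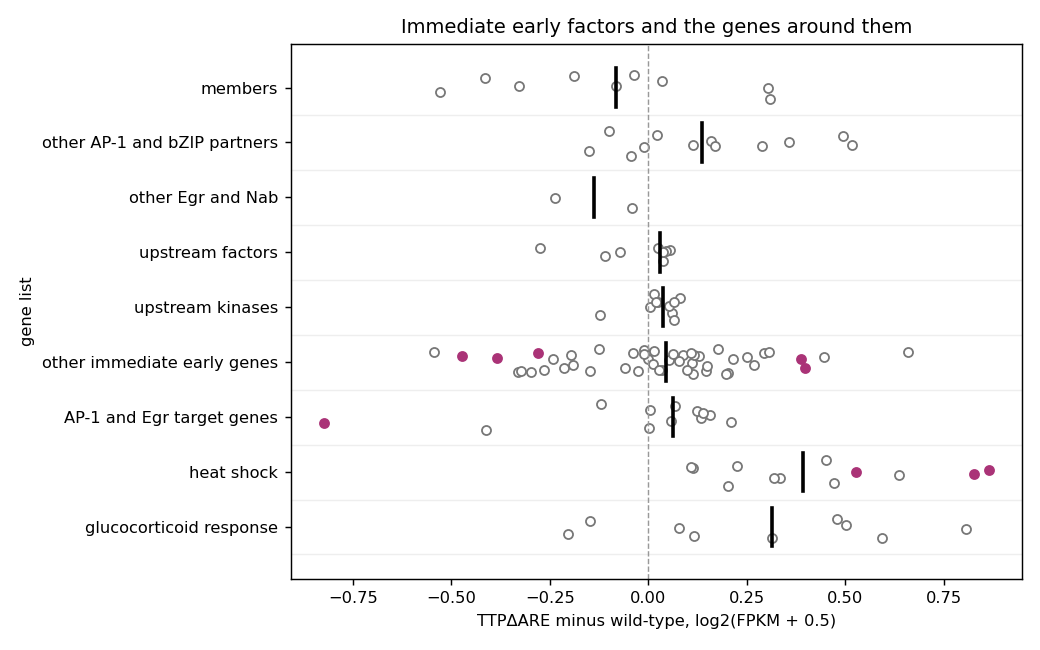
Log2 difference between genotypes (x axis, TTPΔARE minus wild-type on log2(FPKM + 0.5)) of each tested gene, 1 point per gene, by list (y axis, points spread vertically for legibility); filled points passed a limma adjusted p of 0.05 and black bars are medians. None of the 9 members is filled, 5 of 48 other immediate early genes are (4.00% of all transcripts passed), and the heat shock median lies at 0.39.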

How the data were processed

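Spleen RNA of 8 mice was sequenced. The submitters' processing notes name BWA and the mm10 build. How fragments were counted, with which annotation, strand setting and filters, is not given in the sources used here. FPKM values were deposited by the authors for each RefSeq transcript in 1 table; reads of overlapping genes or close copies may therefore be shared in ways that cannot be checked.

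Groups came from the genotype labels. The members and gene lists were chosen with earlier results of these data known. The filter was a mean of at least 0.5 FPKM, which left 16608 transcripts. log2(FPKM + 0.5) was fitted with limma 3.58.1 (R 4.3.3; variance trend, two-sided, no covariate), with Benjamini-Hochberg adjustment over all of them and a threshold of 0.05. Fold changes on this scale understate the change of low genes. The fit was checked on simulated data with known changes. In list summaries each symbol was represented by its most abundant transcript.

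Depth was estimated from low values, of which 45.8% to 49.3% were whole fragments within 0.05 at the best depth, against 8.04% to 8.38% at other depths; this is too few to rebuild counts, so no count model was run. Estimated fragments and errors cover counting only. P-values measure the spread between these spleens, taken as separate mice from the design text. Pair correlations used exact permutation over spleens, computed with numpy 2.4.6, and the ranks for Spearman's rho came from scipy 1.17.1.

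Named genes were every member, genes of each pathway list past the threshold or otherwise the 2 smallest p and the highest mean, and the 10 symbols most like Fos and most like Jund; 1 gene that this rule names is not reported here. Alternatives covered pseudocount, filter, scaling, variance model, sample weights, an erythroid covariate and leaving out each spleen. Promoter sequences are from RefSeq and 3′ UTRs from GENCODE M21.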

Additional observations from a re-analysis of the deposited data

Results flagged for a closer look

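In 60 groups of 4 spleens, 1 value lay far from the other 3 by Dixon's 95% criterion in 4 groups, where chance gives about 1 in 20 groups. Egr1 was at 13.1 FPKM in wild-type 3 and at 7.82 to 8.24 FPKM in the other wild-type spleens. Rhob was at 10.5 FPKM in wild-type 4 and at 12.1 to 12.4 FPKM in the other wild-type spleens. Hsph1 was at 28.4 FPKM in TTPΔARE 3 and at 16.7 to 18.6 FPKM in the other TTPΔARE spleens. Klf9 was at 3.75 FPKM in wild-type 2 and at 3.18 to 3.26 FPKM in the other wild-type spleens. Fos in wild-type 3, at 4.60 FPKM, was not singled out by this criterion.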

How the results depend on the processing

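Of 162 values of the 9 tested members under 18 alternatives, 151 kept their direction and side of the threshold, 3 crossed it and 8 changed sign. The number of members past adjusted p 0.05 was 0 in the reported fit and 1, Ier2, with median-of-ratios scaling and with robust variance; leaving out 1 spleen gave 0 to 1, and Ier2 passed without wild-type 2 at a log2 difference of -0.49. The number of transcripts that passed was 2 with the erythroid covariate (0 higher, 2 lower), 197 to 714 when 1 spleen was left out and 537 to 880 otherwise; it was 250 without wild-type 4, 197 without TTPΔARE 3 and 254 without TTPΔARE 4. The number of correlated member pairs was 2, and 0 to 2 when 1 spleen was left out. Egr3 changed sign to 0.010 with the erythroid covariate. Leaving out 1 spleen gave log2 differences of -0.174 to 0.087 for Egr1, -0.026 to 0.106 for Egr2 and -0.131 to 0.060 for Egr3. For Fos the log2 difference was -0.23 without wild-type 3 and -1.11 with the erythroid covariate, which also moved Egr1 to -0.37, Egr2 to 0.19, Jund to -0.08 and Fosl2 to 0.07; the cause was not tested. Rhob, Btg2, Hsph1 and Hspa8 passed under 9, 8, 8 and 8 of 18 alternatives, and all 4 were lost with no filter and with no variance trend; Btg2 was also lost with quantile normalization, Hspa8 with median-of-ratios scaling and Hsph1 with robust variance. No paired analysis was possible because the labels carry no number shared between genotypes. Depth limits Fosb most, at 34.1 fragments in its lowest spleen.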
